A study of Mus musculus with 12 samples.

Results

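The genes described here encode complement components and complement receptors. They were chosen by name from a list of 9 genes: C1qa, C1qb and C1qc of the classical pathway, C2 and C3, Cfb and Cfp of the alternative pathway, and the receptors C3ar1 and C5ar1. Of the 9, 8 have a probe set with 1 gene symbol in the probe table, and C3 was not analysed here. They are 8 of the 19938 genes tested. The list was drawn up with results of these arrays known, and the values behind the choice are not recorded. Calls for these genes therefore describe this fit and are not independent evidence.

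Complement is a cascade of plasma proteins that marks targets for uptake and attracts phagocytes. C1q recognises antibody complexes, dying cells and other targets and starts the classical pathway, in which C2 supplies the protease of the C3 convertase. Factor B, encoded by Cfb, supplies the corresponding protease of the alternative pathway, and properdin, encoded by Cfp, stabilises that convertase. The receptors C3ar1 and C5ar1 bind the small fragments released on cleavage of C3 and C5. Most complement proteins in plasma come from the liver, whereas C1q is made mainly by macrophages and related myeloid cells, which also make factor B and properdin locally.

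Transcripts were measured with 12 Affymetrix Mouse Gene ST arrays in thioglycollate-elicited peritoneal macrophages of C57BL/6 mice. Donors started a high-fat diet or chow at 6 weeks of age and stayed on it for 12 weeks. There were 6 groups of 2 arrays: high-fat macrophages with high-fat red blood cells (RBC), with chow RBC or without RBC, and chow macrophages with high-fat RBC, with chow RBC or without RBC. High-fat and chow RBC came from mice on that diet, and the cultures were set up to study erythrophagocytosis, the engulfment of red cells. Arrays of a group are labelled as separate animals, but whether an animal number is shared between groups is not stated. Values are the authors' deposited log2 signals, differences are log2 differences ± SE from limma fitted to all arrays, and "called" means a Benjamini-Hochberg adjusted p from limma below 0.05 over all 19938 genes. With 2 arrays per group the number of arrays limits the precision, and signal over background is unknown.

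The arrays of the 2 macrophage diets also differed in transcripts of the X and Y chromosomes. Xist, the RNA that silences an X chromosome in female cells, read 3.22 to 4.14 on the 6 arrays of high-fat macrophages and 9.07 to 9.44 on the 6 arrays of chow macrophages. The Y-linked gene Eif2s3y read 7.38 to 7.72 on the arrays of high-fat macrophages and 2.76 to 3.42 on those of chow macrophages. Kdm5d and Uty, also Y-linked, were split the same way. The labels used here give no sex. Macrophage diet and this X- and Y-linked difference cannot be told apart in any comparison between high-fat and chow macrophages. Comparisons within 1 macrophage diet lie on one side of the split.

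**Figure D1:**
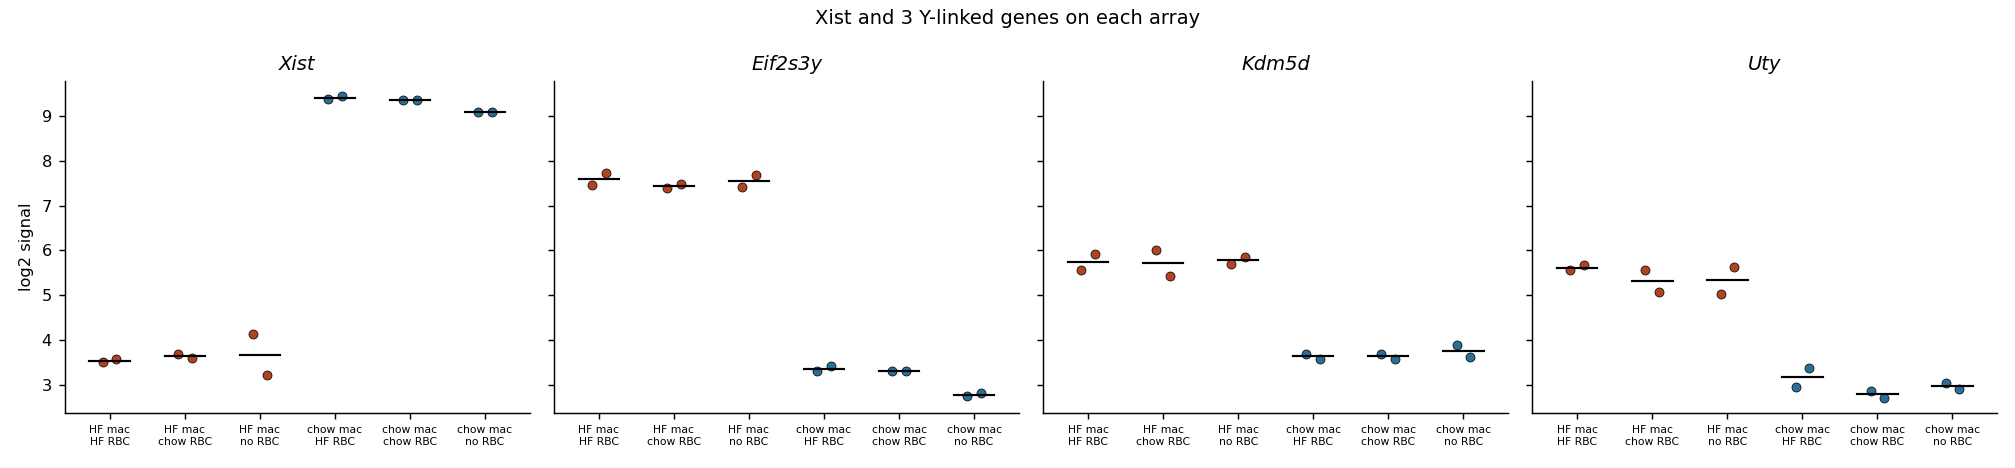
Log2 signal of Xist and of the Y-linked genes Eif2s3y, Kdm5d and Uty on each array (points) with group means (lines), high-fat macrophages in red on the left and chow macrophages in blue on the right. Xist lies at 4.14 or below on all 6 arrays of high-fat macrophages and at 9.07 or above on all 6 arrays of chow macrophages, and the Y-linked genes are split the opposite way.

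The macrophage identity of the cultures was checked with 10 markers, of which 9 were measured. Group means of the lysosomal protein gene Cd68 lay between 12.1 and 12.2, and those of lysozyme, Lyz2, between 12.3 and 12.4, in all 6 groups. Other markers were not steady: without RBC, 5 of the 9 were called lower and 1 higher in high-fat than in chow macrophages. In that comparison 5.82% of all genes were called lower and 8.12% higher. Adgre1, the F4/80 antigen gene, averaged 8.98 in unexposed high-fat and 10.14 in unexposed chow macrophages, and Cd14 8.61 and 10.43 in the same groups. Cd163, a marker of some tissue macrophages, had group means of only 3.34 to 3.67. The 2 arrays of unexposed high-fat macrophages were the least alike pair, with a median absolute difference of 0.155 between them, against 0.0884 to 0.12 in the other groups. Some blood cell transcripts were higher in exposed cultures. Of 15 neutrophil markers 6 rose in high-fat macrophages, and 5 rose and 1 fell in chow macrophages, and of 7 platelet markers 4 rose in each. With exposure 1.08% of all genes were called in high-fat macrophages, and 8.22% rose and 4.51% fell in chow macrophages. The neutrophil gene S100a9 was higher by 6.28 in high-fat and by 5.24 in chow macrophages, and the platelet chemokine gene Ppbp by 5.06 in high-fat and by 3.82 in chow macrophages. The neutrophil genes Camp, Ltf, Elane, Mpo and Ly6g and the platelet gene Pf4 were called in neither.

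Of the 8 complement genes, 6 were called lower in high-fat than in chow macrophages, both without RBC, where 5.82% of all genes were called lower, and with RBC, where 2.65% were. The means of all 8 were lower in both comparisons. The fall was largest for Cfb, at 16.5-fold without RBC and 5.66-fold with RBC, and ranged from 1.78-fold to 3.95-fold for C1qa, C1qb, C1qc, Cfp and C5ar1. C2 and C3ar1 were not called in either comparison. Exposure to RBC went with lower Cfb and Cfp in chow macrophages, where 4.51% of all genes were called lower. In high-fat macrophages no complement gene was called with exposure, where 1.08% of all genes were called. The diet of the RBC donor went with no called complement gene, and limma called 0.0251% of all genes in high-fat and 0% in chow macrophages.

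**Figure D2:**
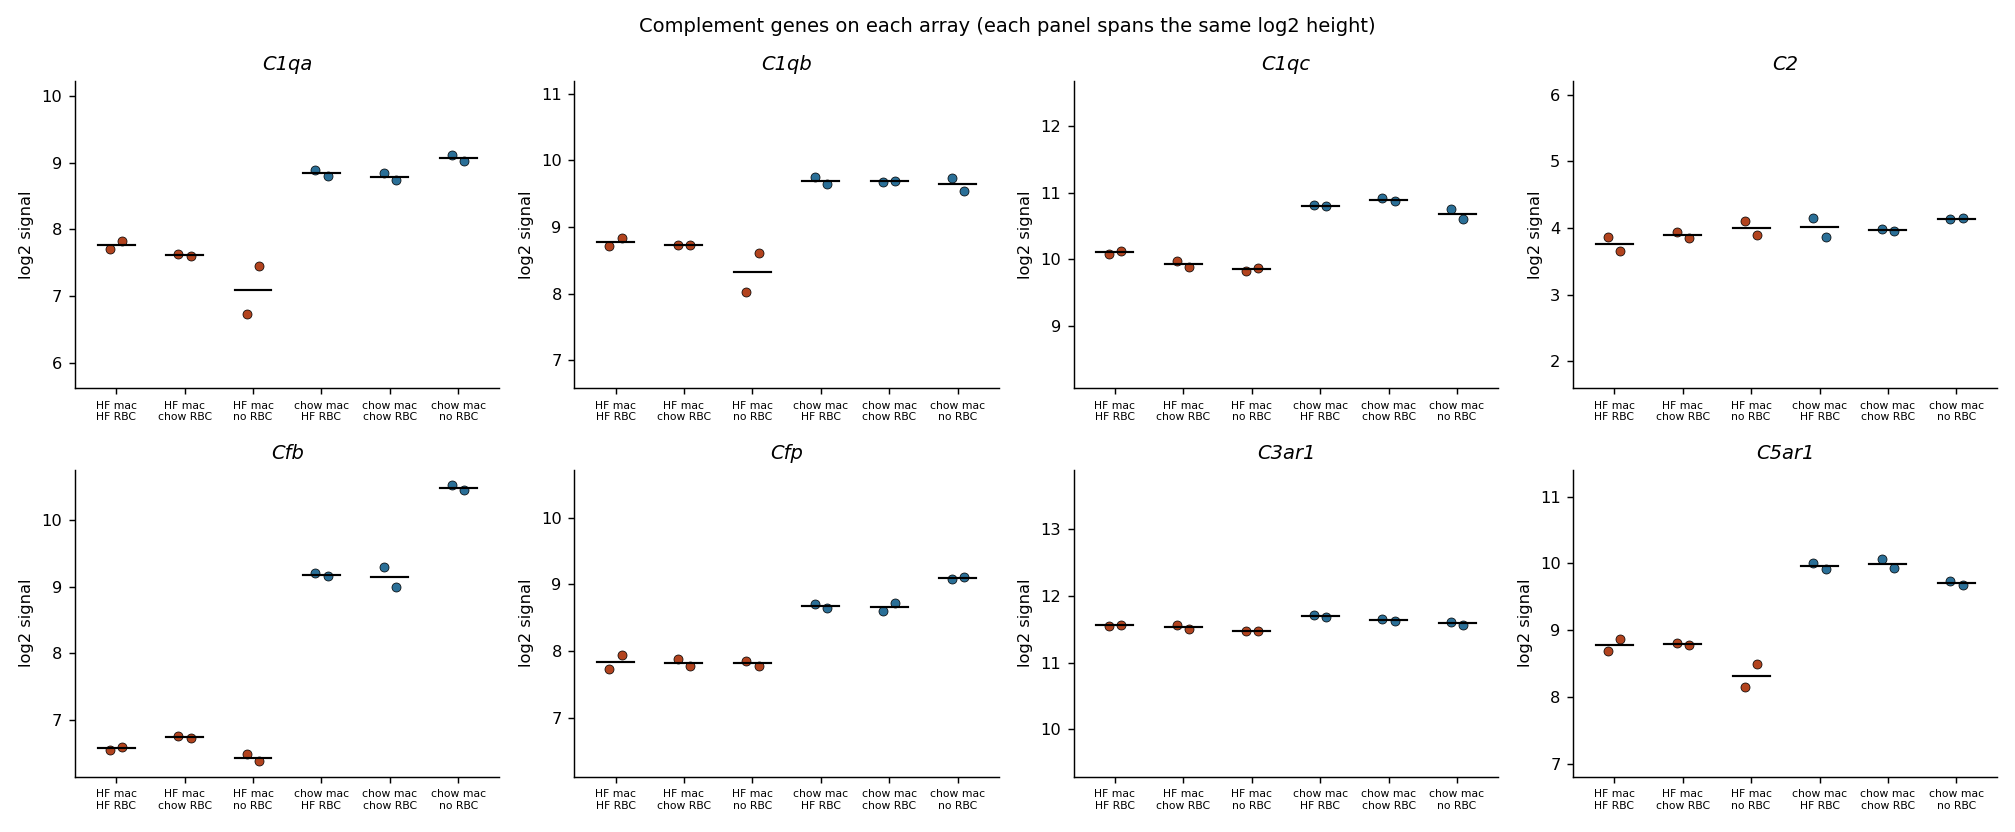
Log2 signal of the 8 complement genes on each array (points) with group means (lines), high-fat macrophages (HF mac, red) left of chow macrophages (chow mac, blue), and within each, high-fat RBC, chow RBC and no RBC. All 6 high-fat arrays lie below all 6 chow arrays for every gene except C2, by the widest gap for Cfb, and by a narrow margin for C3ar1. The share of all genes split this way over all arrays was not counted. It cannot exceed 6.77%, the share of all genes whose exposed high-fat arrays all lie below the exposed chow arrays.

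Whether the macrophage donor's diet went with complement expression was asked by comparing high-fat with chow macrophages. C1qa, C1qb and C1qc encode the chains of C1q and lie side by side on chromosome 4. C1qa read 7.71 and 7.82 with high-fat RBC, 7.64 and 7.60 with chow RBC, and 6.73 and 7.45 without RBC in high-fat macrophages. In chow macrophages C1qa read 8.88 and 8.81 with high-fat RBC, 8.84 and 8.73 with chow RBC, and 9.12 and 9.02 without RBC. Every high-fat array was below every chow array, and the pair of unexposed high-fat arrays was the most spread. How many of all genes show such a split over all arrays was not counted. The difference between high-fat and chow macrophages was -1.98 ± 0.17 without RBC (limma adjusted p = 1.55e-06) and -1.12 ± 0.12 with RBC (limma adjusted p = 4.58e-05).

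For C1qb, high-fat macrophages read 8.72 and 8.84 with high-fat RBC, 8.73 and 8.73 with chow RBC, and 8.03 and 8.61 without RBC. The corresponding signals in chow macrophages were 9.75 and 9.64 with high-fat RBC, 9.67 and 9.70 with chow RBC, and 9.74 and 9.54 without RBC. All 6 chow arrays lay close together, above all high-fat arrays. The difference was -1.32 ± 0.15 without RBC (limma adjusted p = 2.59e-05) and -0.94 ± 0.10 with RBC (limma adjusted p = 7.74e-05).

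C1qc showed the smallest gap of the C1q genes. Its signals in high-fat macrophages were 10.08 and 10.13 with high-fat RBC, 9.98 and 9.88 with chow RBC, and 9.83 and 9.87 without RBC. Those in chow macrophages were 10.81 and 10.80 with high-fat RBC, 10.91 and 10.87 with chow RBC, and 10.75 and 10.61 without RBC. The groups of the macrophage diets did not overlap, and the gap was much the same in both conditions, at -0.83 ± 0.09 without RBC (limma adjusted p = 2.97e-05) and -0.83 ± 0.07 with RBC (limma adjusted p = 3.08e-06).

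The sequences before the start sites of C1qb and C1qc are shown because these neighbouring genes fell together, and that of Cfp because it fell with them on another chromosome. They are the 250 bases before each start, from RefSeq (GRCm38.p6), at chr4:136886201-136886450 for C1qb, chr4:136892915-136893164 for C1qc and chrX:20931556-20931805 for Cfp, all on the minus strand. Capitals mark matches to the motifs searched on both strands.
C1qb: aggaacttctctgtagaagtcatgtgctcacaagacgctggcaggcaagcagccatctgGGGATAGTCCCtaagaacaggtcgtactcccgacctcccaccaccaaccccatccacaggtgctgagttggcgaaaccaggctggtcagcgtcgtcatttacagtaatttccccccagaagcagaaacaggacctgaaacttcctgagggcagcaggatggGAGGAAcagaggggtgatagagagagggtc
C1qc: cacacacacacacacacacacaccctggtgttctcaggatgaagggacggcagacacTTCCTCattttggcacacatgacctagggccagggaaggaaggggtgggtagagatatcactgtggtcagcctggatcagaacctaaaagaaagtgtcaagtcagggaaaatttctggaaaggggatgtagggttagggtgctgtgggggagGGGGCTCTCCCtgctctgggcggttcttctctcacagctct
Cfp: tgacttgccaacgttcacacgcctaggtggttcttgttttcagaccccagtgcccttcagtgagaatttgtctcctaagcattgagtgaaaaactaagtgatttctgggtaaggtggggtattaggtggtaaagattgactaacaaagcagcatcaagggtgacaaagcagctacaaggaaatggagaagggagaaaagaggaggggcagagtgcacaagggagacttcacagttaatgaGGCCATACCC
The motifs were GAGGAA (core of PU.1, a myeloid factor), TGCTGAC (half-site of MAF factors), an interferon response type motif (GAAA, any 2 bases, GAAA) and an NF-kB-like motif (GGG, any 5 bases, CC). GAGGAA was found in C1qb 30 to 25 bases before the start and, on the opposite strand, in C1qc 193 to 188 bases before it, and is present in 23.3% of the 32851 promoters in the table. The NF-kB-like motif was found in C1qb, C1qc, Cfp and C3ar1 (several of these matches overlap on the 2 strands), and in 45.8% of all promoters. TGCTGAC and the interferon response type motif, present in 3.81% and 2.98% of all promoters, were in none of the windows of C1qb, C1qc, Cfp, C3ar1 or C5ar1, and C5ar1 had no match to any of the motifs. A match is a string of letters and not a binding site. RefSeq promoters of C1qa, C2 and Cfb were not used here.

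C2, the classical pathway protease, read 3.65 to 4.10 on the high-fat arrays and 3.87 to 4.15 on the chow arrays. These ranges overlap, and 25.8% of genes had a lower mean than C2. The difference was -0.14 without RBC (95% interval -0.39 to 0.12) and -0.16 with RBC (-0.35 to 0.02), neither of which was called.

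Cfb, which lies next to C2 on chromosome 17, had the widest spread. In high-fat macrophages it read 6.56 and 6.60 with high-fat RBC, 6.76 and 6.74 with chow RBC, and 6.48 and 6.39 without RBC. In chow macrophages it read 9.20 and 9.16 with high-fat RBC, 9.29 and 9.002 with chow RBC, and 10.52 and 10.45 without RBC. The gap between the lowest chow and the highest high-fat array was wide, and the unexposed chow arrays stood above all others. High-fat minus chow was -4.05 ± 0.11 without RBC (limma adjusted p = 2.66e-11), which ranked 11 from the lowest of all genes. With RBC it was -2.50 ± 0.07 (limma adjusted p = 1.1e-10), which ranked 6 from the lowest.

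Cfp is X-linked. Properdin transcripts read 7.73 and 7.94 with high-fat RBC, 7.88 and 7.78 with chow RBC, and 7.86 and 7.78 without RBC in high-fat macrophages. Chow macrophages gave 8.71 and 8.65 with high-fat RBC, 8.61 and 8.73 with chow RBC, and 9.09 and 9.11 without RBC. The high-fat groups were alike and lay below all chow arrays. The difference between high-fat and chow macrophages was -1.28 ± 0.10 without RBC (limma adjusted p = 9e-07) and -0.84 ± 0.07 with RBC (limma adjusted p = 6.09e-06).

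The receptors differed from each other. C5ar1, the receptor through which phagocytes respond to the C5 fragment, read 8.68 and 8.87 with high-fat RBC, 8.80 and 8.78 with chow RBC, and 8.15 and 8.49 without RBC in high-fat macrophages. Its signals in chow macrophages were 10.01 and 9.92 with high-fat RBC, 10.06 and 9.93 with chow RBC, and 9.74 and 9.67 without RBC. The macrophage diets did not overlap, and in each diet the unexposed arrays were the lowest. High-fat minus chow was -1.39 ± 0.12 without RBC (limma adjusted p = 1.82e-06) and -1.20 ± 0.08 with RBC (limma adjusted p = 7.02e-07). C3ar1 read 11.47 to 11.57 on the high-fat arrays and 11.57 to 11.71 on the chow arrays. Its difference was -0.11 without RBC (95% interval -0.30 to 0.08) and -0.12 with RBC (-0.26 to 0.01), which was not called.

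**Figure D3:**
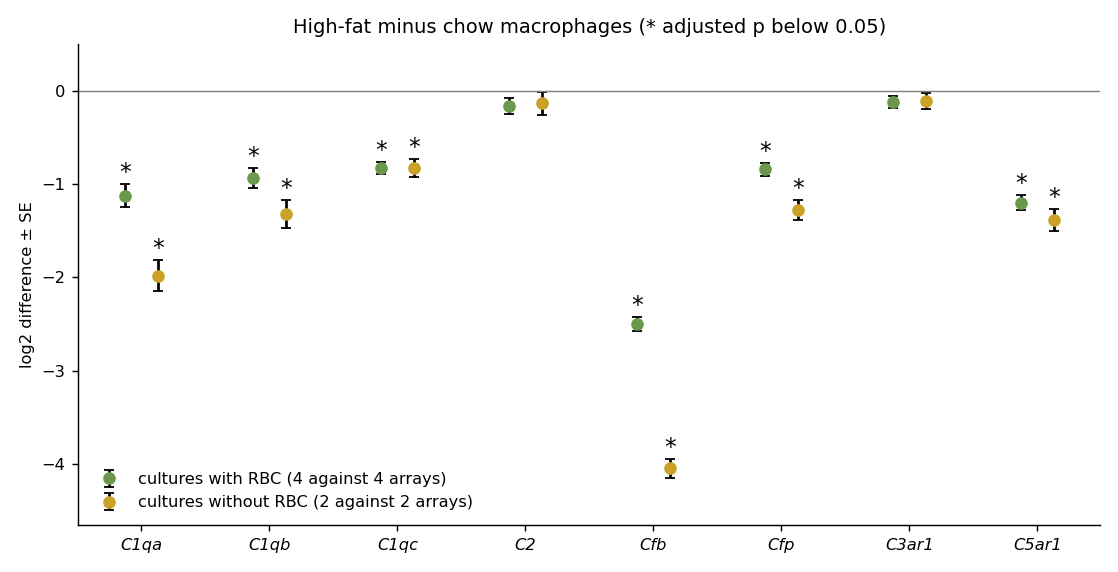
Log2 difference ± SE between high-fat and chow macrophages for each complement gene, in cultures with RBC (green) and without RBC (yellow), with an asterisk where the adjusted p is below 0.05. Cfb lies lowest at -2.50 with RBC and -4.05 without, and C2 and C3ar1 lie near 0.

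Without RBC, 6 of the 8 genes were called lower and 0 higher in high-fat macrophages, while 5.82% of all genes were called lower and 8.12% higher. On all 8 genes the groups did not overlap, with the high-fat arrays below, which held for 24.4% of all genes. With RBC, again 6 were called lower and 0 higher, against 2.65% and 2.2% of all genes, and the groups did not overlap for 7 genes, against 6.77% of all genes. The median difference of the 8 genes was -1.30 without RBC and -0.89 with RBC, and that of all genes -0.01 and 0.01. These arrays are from bulk cultures, in which fewer cells of a type and less RNA per cell cannot be told apart. Some macrophage markers moved with the complement genes: without RBC, 5 of the 9 were called lower and 1 higher in high-fat macrophages. Those called lower included Cd14 (-1.82), Fcgr1 (-1.81), Adgre1 (-1.17) and Csf1r (-0.81). The marker called higher was Mertk, with means of 8.04 in unexposed high-fat and 7.53 in unexposed chow macrophages. The summed log2 signal of the 9 was 80.2 on both unexposed high-fat arrays, against 85.3 to 85.4 on the unexposed chow arrays. With RBC it was 82.9 to 83.2 in high-fat and 85.1 to 85.8 in chow macrophages. B cell markers moved too, with 6 of 9 lower and 1 higher without RBC, and a summed signal of 40.8 to 41.4 in high-fat and 46.9 to 48.3 in chow macrophages. Neutrophil markers, 5 of 15 of them lower without RBC, summed to 75.3 to 76.8 in high-fat and 81.4 to 81.6 in chow macrophages. Without RBC, 2 of 7 platelet markers were lower and 3 of 10 mesothelial and fibroblast markers higher, and 1 each way was called of the erythroid, the dendritic cell, and the eosinophil and mast cell markers. With RBC, 3 macrophage markers were lower, 3 B cell markers lower and 1 higher, and 2 neutrophil and 2 mesothelial and fibroblast markers lower. Lower too were 1 platelet and 1 erythroid marker. Of the eosinophil and mast cell markers 2 were higher and 1 lower, and of the dendritic cell markers 1 each way. With RBC, B cell sums were 40.9 to 41.7 in high-fat and 43.6 to 45.4 in chow macrophages, and neutrophil sums overlapped, at 87.9 to 92.2 in high-fat and 89.6 to 91.5 in chow macrophages. The part of these marker differences in the complement result was not tested.

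What RBC exposure did within chow macrophages was asked by comparing the 4 exposed arrays with the 2 unexposed ones. Cfb was at -1.32 ± 0.09 (limma adjusted p = 5.33e-07), a 2.50-fold fall that was alike for both kinds of RBC, at -1.30 with high-fat RBC and -1.34 with chow RBC. All 4 exposed arrays were below both unexposed arrays. Cfp fell by 0.42 ± 0.09 (limma adjusted p = 0.00592), with -0.42 for high-fat RBC and -0.43 for chow RBC. The Cfp call did not hold when replicate 2 of the unexposed chow group was left out (limma adjusted p = 0.0749).

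The other complement genes of chow macrophages were not called with exposure. C5ar1 was at 0.28 ± 0.10 (limma adjusted p = 0.0958), with all 4 exposed arrays above both unexposed arrays. Leaving out either unexposed high-fat array kept this difference at 0.28 and changed only the spread that all groups share. C1qa was at -0.25 ± 0.15, C1qb at 0.05 ± 0.13 and C1qc at 0.17 ± 0.08, so that the C1q genes did not share a sign. C2 was at -0.15 ± 0.10 and C3ar1 at 0.08 ± 0.08. In all, 2 of 8 genes were called lower and 0 higher, against 4.51% and 8.22% of all genes. The groups did not overlap for 6 genes, 3 with the exposed arrays higher and 3 lower, against 20.2% and 20.6% of all genes. In the same comparison 5 of 15 neutrophil markers, 4 of 7 platelet markers and 4 of 10 mesothelial and fibroblast markers rose, while 1 neutrophil marker and 5 of 9 B cell markers fell. Of 7 erythroid markers 2 rose. Of the 9 macrophage markers 1 rose and 2 fell, those that fell being Adgre1 (-0.68) and Csf1r (-0.41). Mertk went the other way, with means of 8.27 with high-fat RBC, 8.12 with chow RBC and 7.53 without RBC. Summed signals of the neutrophil markers were 89.6 to 91.5 on exposed and 81.4 to 81.6 on unexposed chow arrays, and those of the B cell markers 43.6 to 45.4 on exposed and 46.9 to 48.3 on unexposed chow arrays. Their part in the Cfb and Cfp falls was not tested.

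In high-fat macrophages 0 of the 8 genes were called with exposure by limma, and 1.08% of all genes were called. An unadjusted p under 0.05 was found for 4 of the 8 and for 10.8% of all genes. C1qa was at 0.60 ± 0.15 (limma adjusted p = 0.0741), C5ar1 at 0.46 ± 0.10 (limma adjusted p = 0.0503) and C1qb at 0.43 ± 0.13 (limma adjusted p = 0.177). C1qc was at 0.17 ± 0.08 and Cfb at 0.23 ± 0.09. For these 5 genes and C3ar1 all 4 exposed arrays lay above both unexposed arrays, which held in that direction for 8.87% of all genes. The 2 unexposed arrays decide the values of C1qa, C1qb and C5ar1. Without replicate 2 of the unexposed high-fat macrophages, C1qa was at 0.97, C1qb at 0.72 and C5ar1 at 0.64. Without replicate 1 the differences were 0.24, 0.15 and 0.29. Either fit keeps 1 unexposed high-fat array, which adds nothing to the spread, so calls are not given. Cfp was at 0.01 ± 0.09, C2 at -0.17 ± 0.10 and C3ar1 at 0.07 ± 0.08. In the same comparison 6 of 15 neutrophil markers, 4 of 7 platelet markers and 2 of 9 macrophage markers (Cd14 by 1.41 and Fcgr1 by 0.84) rose, as did 1 of 7 erythroid markers, and 1 of 10 mesothelial and fibroblast markers fell. The neutrophil sum was 87.9 to 92.2 on exposed and 75.3 to 76.8 on unexposed high-fat arrays, and its part in these values was not tested.

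**Figure D4:**
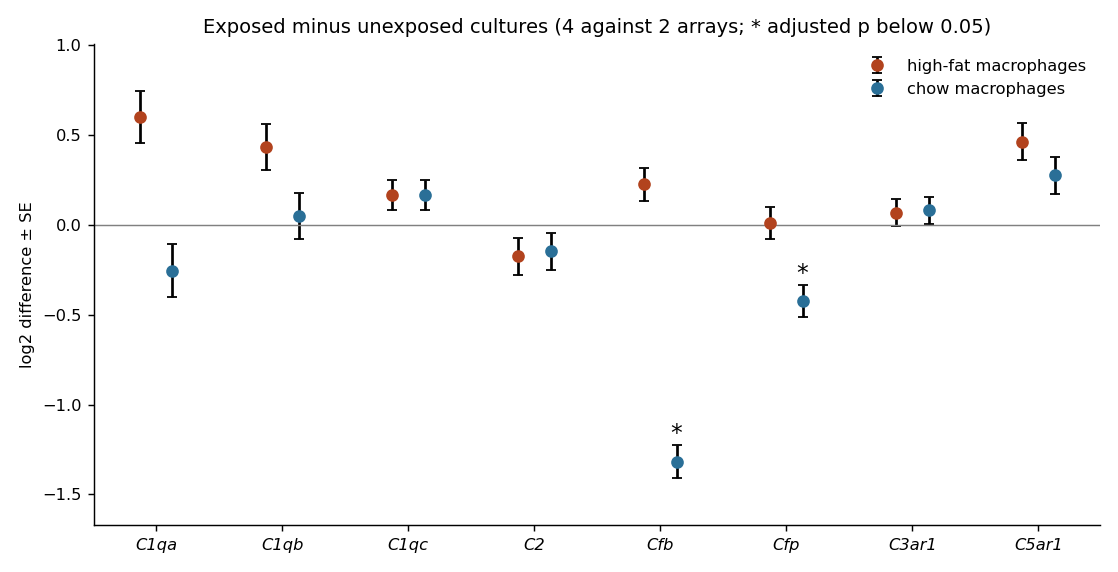
Log2 difference ± SE between exposed and unexposed cultures for each complement gene in high-fat (red) and chow macrophages (blue), with an asterisk where the adjusted p is below 0.05. In chow macrophages Cfb lies at -1.32 and Cfp at -0.42, and in high-fat macrophages C1qa, C1qb and C5ar1 lie highest, between 0.43 and 0.60, without a call.

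An interaction term asked whether the response to RBC differed between the macrophage diets. It is the exposure difference of high-fat macrophages less that of chow macrophages. It is also the diet gap with RBC minus that without, and so is not independent of the differences above. It was called for 2 of 8 genes, both more positive in high-fat macrophages, against 2.57% of all genes called in that direction and 3.1% in the other. For Cfb it was 1.55 ± 0.13 (limma adjusted p = 8.49e-06) and for C1qa 0.86 ± 0.21 (limma adjusted p = 0.0253). The C1qa call was lost when any of 4 chow macrophage arrays was left out: replicate 2 of the chow RBC group (limma adjusted p = 0.0578), replicate 2 of the high-fat RBC group (0.0573), or replicate 1 or 2 of the unexposed group (0.101 and 0.0809). Cfp was at 0.44 ± 0.13 (limma adjusted p = 0.0611) and C1qb at 0.38 ± 0.18, C5ar1 at 0.19 ± 0.15, C3ar1 at -0.01 ± 0.11, C2 at -0.03 ± 0.15 and C1qc at -0.002 ± 0.12. With all arrays kept, Cfp was called after removal of the lowest genes (limma adjusted p = 0.0385) and with an intensity trend and robust eBayes (limma adjusted p = 0.0277). Without replicate 1 of the unexposed high-fat macrophages C1qa was at 0.50. Without replicate 2 of that group C1qb was at 0.67. Cfp was at 0.49 when replicate 1 of the high-fat macrophages given high-fat RBC was omitted. Of the 9 macrophage markers 4 were called in the same direction, namely Cd14 (1.17), Adgre1 (0.71), Csf1r (0.69) and Fcgr1 (0.57). So were 4 of 9 B cell and 4 of 15 neutrophil markers, while 1 neutrophil marker and 4 of 10 mesothelial and fibroblast markers were called in the other. The part of these markers in the Cfb and C1qa interactions was not tested. Since the X- and Y-linked transcripts divide the macrophage diets, their part in this interaction cannot be told apart from that of the diet.

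The diet of the RBC donor was compared within each macrophage diet. Between high-fat and chow RBC, 0 of 8 genes were called in high-fat macrophages, where limma called 0.0251% of all genes, and 0 in chow macrophages, where it called 0%. No complement gene had an unadjusted p under 0.05 in either comparison. The groups did not overlap for 3 genes (Cfb, C1qa and C1qc) in high-fat macrophages and for 2 (C1qc and C3ar1) in chow macrophages, against 33.6% and 31.4% of all genes. Differences lay between -0.17 for Cfb and 0.17 for C1qc in high-fat macrophages, and all 95% intervals lay within -0.40 and 0.51. In chow macrophages they lay between -0.08 for C1qc and 0.06 for C3ar1, with intervals within -0.31 and 0.42. The interaction of RBC diet with macrophage diet was called for 0 of 8, with 0% of all genes called, and its intervals lay within -0.54 and 0.60.

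Among the 6 groups, the unexposed chow macrophages had the highest mean of Cfb (10.48), Cfp (9.10) and C1qa (9.07). The exposed chow groups followed at 9.18 and 9.15, 8.68 and 8.67, and 8.84 and 8.79 for high-fat and chow RBC, neighbours that did not differ beyond their spread. For C5ar1 and C1qc the highest means were in chow macrophages with chow RBC (10.00 and 10.89). The lowest mean of Cfb (6.44), C1qa (7.09), C1qb (8.32), C1qc (9.85), C3ar1 (11.48) and C5ar1 (8.32) was that of the unexposed high-fat macrophages.

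The genes most like each complement gene over the 12 arrays were named by Pearson's r, given as a description, since the arrays fall into 2 levels by macrophage diet. Cfb was most like Casp4, an inflammatory caspase (r = 0.995), Clmp (0.992) and Aif1 (0.992). Cfp was also most like Casp4 (r = 0.989), followed by the interferon-induced Bst2 (0.987) and Retnla (0.985). Adgre5 was the gene most like C1qa (r = 0.987), C1qb (0.991) and C5ar1 (0.984), with Clec4a1 and Slc3a2 next for C1qa, Themis2 and Clec2g for C1qb, and the Fc receptor gene Fcgr1 (0.980) and Themis2 for C5ar1. C1qc was most like Gdf3 (r = 0.977), Arg1 (0.973) and Lst1 (0.972). C3ar1 was most like S1pr1, Fgl2 and Cttnbp2nl (r = 0.940, 0.925 and 0.918), and C2 like Mybph, Irx2 and St8sia6 (0.901, 0.897 and 0.890), with 0 genes at 0.95 or above for either. Among the complement genes themselves, r was 0.991 for Cfb with Cfp, 0.987 for C1qa with C1qb, 0.985 for C1qb with C5ar1 and 0.979 for C1qc with C5ar1.

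Of 45 other complement genes in 4 lists by role, 42 were measured, and between high-fat and chow macrophages without RBC 4 were called higher and 2 lower, against 8.12% and 5.82% of all genes. With RBC 4 were higher and 1 lower, against 2.2% and 2.65% of all genes. Their median difference was -0.03 without RBC and 0.03 with RBC, near that of all genes. Among 9 receptors, 3 were higher and 0 lower in each comparison. Itgax, a subunit of complement receptor 4, read 10.58 to 10.82 on the high-fat arrays and 9.62 to 9.93 on the chow arrays, with differences of 1.05 ± 0.11 and 0.82 ± 0.08 without and with RBC (limma adjusted p = 1.16e-05 and 1.32e-05). Vsig4, a receptor for C3 fragments on tissue macrophages, was higher by 0.54 ± 0.14 and 0.44 ± 0.10. Cd93, once described as a C1q receptor, was higher by 0.84 ± 0.10 without RBC (limma adjusted p = 3.38e-05) and at 0.02 ± 0.07 with RBC. The shared integrin subunit Itgb2 was called with RBC (0.28 ± 0.07) and Itgam, the other subunit of complement receptor 3, in neither (0.30 ± 0.10 and 0.16 ± 0.07).

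Among 13 measured regulators, 1 was higher and 1 lower in each comparison. Of all genes, 8.12% were called higher and 5.82% lower without RBC, and 2.2% and 2.65% with RBC. Clu, or clusterin, which blocks the terminal complex, was at 0.89 ± 0.11 without RBC and 0.37 ± 0.08 with RBC, and Cd59a, a membrane inhibitor of that complex, at -0.53 ± 0.17 and -0.57 ± 0.12. Of 13 C1 complex and lectin pathway genes, the ficolin gene Fcna was called lower without RBC (-0.90 ± 0.11, limma adjusted p = 7.37e-05) and none with RBC, where it was at -0.19 ± 0.08. Of 7 alternative and terminal pathway genes 0 were called by limma in either comparison.

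**Figure D5:**
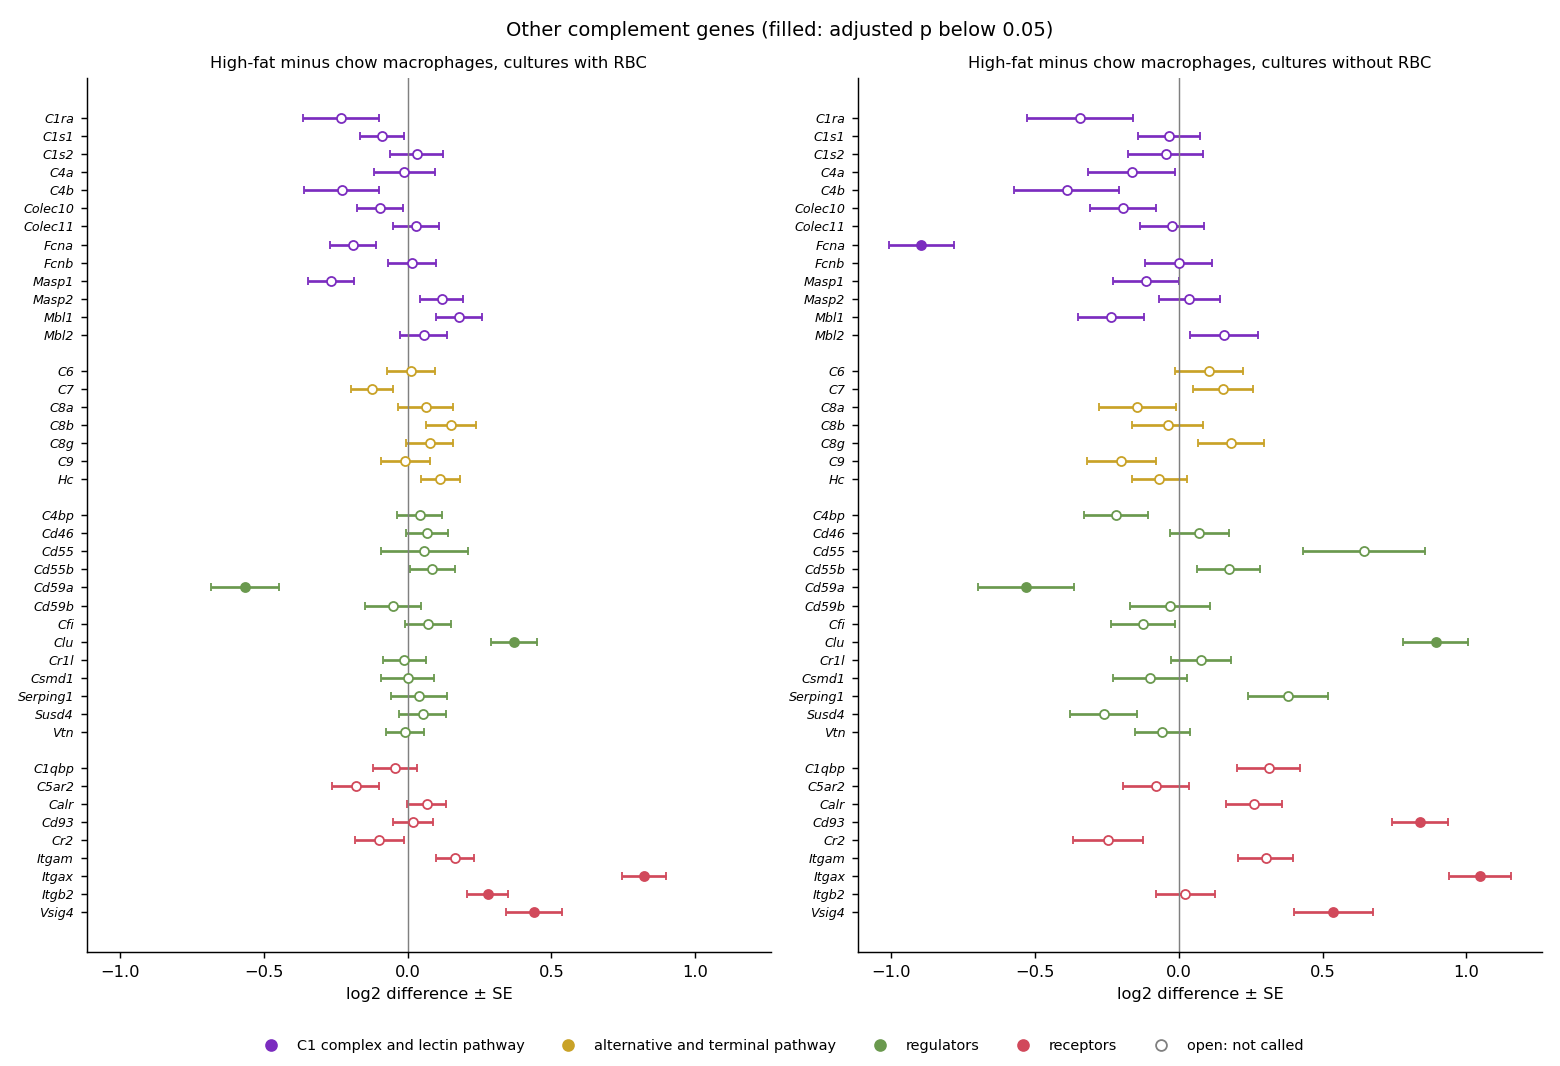
Log2 difference ± SE between high-fat and chow macrophages for 42 other complement genes by role, with RBC (left) and without RBC (right), filled where the adjusted p is below 0.05. Most lie near 0, the receptors Itgax and Vsig4 and the regulator Clu lie above 0 in both panels, and Cd59a lies below 0 in both.

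With exposure of chow macrophages 5 of these 42 genes rose and 3 fell, against 8.22% and 4.51% of all genes. Clu rose by 0.79 ± 0.10, Cd93 by 0.60 ± 0.08, the C1 protease gene C1s1 by 0.49 ± 0.09 and Calr, the chaperone calreticulin, by 0.33 ± 0.08, while Fcna fell by 0.62 ± 0.10 and the terminal component gene C8a by 0.43 ± 0.12. In high-fat macrophages 1 rose and 0 fell, namely C1s1 (0.43 ± 0.09, limma adjusted p = 0.042), where 1.08% of all genes were called. Signals of C1s1 (4.04 to 4.74 over all arrays) and C8a (3.88 to 4.54) were low, as were those of C2 (3.65 to 4.15). Signal over background is unknown for them. The response was more negative in high-fat macrophages for Cd93 (-0.82 ± 0.12) and Clu (-0.52 ± 0.14) and more positive for Fcna (0.71 ± 0.14). With RBC diet 0 of 42 were called by limma in either macrophage diet, where 0.0251% of all genes were called in high-fat and 0% in chow macrophages.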

How the data were processed

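Each array's column holds log2 values as deposited by the authors, 1 per probe set. Their range shows a log scale, and how the authors summarized and normalized them is not given in the sources used. Per the labels' protocols, column-purified RNA was amplified (WTA-Ovation FFPE V2) and biotin-labelled. Of 35557 probe sets 35556 had values, 23410 were in the probe table, and the 21789 with 1 symbol gave 19938 genes. A gene with several probe sets (999 genes) was represented by that of the highest mean. No filter on low values was applied, so all 8 measured complement genes were tested. With limma 3.58.1 in R 4.3.3, group means were fitted over 12 arrays (residual df 6, prior df 7.69) without a replicate block, and 8 contrasts were tested with Benjamini-Hochberg adjustment over all genes. The fit was tested on simulated data. Where animals were shared between cultures, p-values measure only the spread between these arrays.

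The complement genes and lists were chosen with earlier results of these data known. All complement genes of the list are named in every comparison, the 3 genes most like each by correlation, and of the 4 other complement lists up to 6 genes per comparison, by smallest p. Single markers other than S100a9 and Ppbp, Itgam, and a called gene's value in another comparison were added after their values were seen. Alternatives were a threshold of 0.1, a minimum of 1.5-fold, quantile normalization, removal of the lowest 33.3% of genes, robust eBayes with an intensity trend, weighting of arrays, replicate blocks, averaging of probe sets, fitting only the compared arrays, and omission of each array.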

Additional observations from a re-analysis of the deposited data

Results flagged for a closer look

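The interaction of RBC exposure with macrophage diet was called by limma for 2 of 8 complement genes, both more positive in high-fat macrophages. Of all genes, 2.57% were called in that direction and 3.1% in the other. For Cfb the response in high-fat macrophages (0.23) exceeded that in chow macrophages (-1.32) by 1.55, with limma adjusted p = 8.49e-06 and a range of 1.47 to 1.62 over the alternatives, in which it was always called. For C1qa the responses were 0.60 in high-fat and -0.25 in chow macrophages, a difference of 0.86 (limma adjusted p = 0.0253), with a range of 0.50 to 1.22 over the alternatives. Unlike that of Cfb, the C1qa call did not hold when any of 4 chow macrophage arrays was left out. C1qa read 6.73 in replicate 1 and 7.45 in replicate 2 of the unexposed high-fat macrophages.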

How the results depend on the processing

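Of 1376 recomputed differences of the 8 complement genes, 1349 kept their direction and their side of the threshold or stayed uncalled, 6 called ones lost the call, 21 gained one, and 0 called ones changed sign. The 6 calls between high-fat and chow macrophages, with and without RBC, were made under every alternative run, and 0 calls for RBC diet or its interaction under each of them. With exposure of high-fat macrophages 0 were called, but 2 at an adjusted p below 0.1 or with an intensity trend, and 1 (C5ar1) after quantile normalization, after removal of the lowest genes, with the mean of probe sets, or with the replicate block within macrophage diet. Leaving out single arrays gave 0 to 3 there, 1 to 3 (main 2) with exposure of chow macrophages and 1 to 3 (main 2) for the exposure interaction. A fit without 1 array keeps 1 array of that group, which then adds nothing to the spread. A 1.5-fold minimum left 1 call in exposed chow macrophages, since Cfp fell by less. C5ar1 gained a call there at an adjusted p below 0.1, after quantile normalization or with an intensity trend. The Cfp interaction gained a call at an adjusted p below 0.1, after removal of the lowest genes or with an intensity trend. Counts over all genes moved by over 1.5 times between settings. They were 92 to 652 (main 215) for exposure of high-fat and 697 to 3919 (main 2539) for exposure of chow macrophages, 558 to 1594 (main 1131) for the exposure interaction, 1187 to 3714 (main 2780) and 218 to 1427 (main 967) for macrophage diet without and with RBC, 0 to 13 (main 5) and 0 to 2 (main 0) for RBC diet in high-fat and chow macrophages, and 0 to 1 (main 0) for its interaction. Same-numbered arrays of 1 macrophage diet deviated together with correlations of -0.08 to 0.34 over genes in 6 pairs of groups. Across the macrophage diets, 9 pairs of groups gave -0.23 to 0.07. These ranges overlap and do not settle whether animals were shared, and the numbers were not taken as pairs. The replicate block over all groups moved none of the complement counts, and the block within diet, which cannot be estimated for macrophage diet, only the count given above. The fit to compared arrays equals the main one for the exposure interaction. Signal over background is unknown, which limits C2 most of the 8 measured complement genes, and also C1s1 and C8a of the other lists.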
